A study of Rattus norvegicus with 6 samples.

Results

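The members described here are 43 genes of the nuclear receptor field: the receptors other than the COUP-TF and HNF4 families, and the main coactivators and corepressors that work with them. They were chosen by symbol and not by a cut on any measured value, though with earlier results of these data known. Every probe set (a group of oligonucleotides on the array that reads the same transcript) annotated to such a symbol alone was taken. Of the 43 genes, 42 had a named probe set, among 14217 genes named on the array in this way, and together they had 71 of 31042 probe sets tested. Nr6a1 had no probe set named here. The cells were 832/13 INS-1 cells, a clonal rat insulinoma line that secretes insulin, used between passages 7 and 25 and kept in 11 mM glucose. They were transfected with COUP-TFII siRNA or with a scrambled siRNA by electroporation (Amaxa) and RNA was taken after 48 h of culture, on 3 arrays per group that are labelled as biological replicates. The labels do not say how the replicates were separated, so the p values measure the spread between these 6 arrays, which may be in part technical. A single tumour line stands for the beta cell here, and siRNA lowers a transcript without removing it. Of the named beta cell markers on the array, 15 of 15 lay above the background scale defined below, and Gcg, which encodes glucagon and marks alpha cells, lay far above it too (8056, 4789 and 817 on the COUP-TFII siRNA arrays and 6313, 3397 and 394 on the scrambled siRNA arrays). In all 3 of 12 markers of other islet and exocrine cells and 2 of 9 mesenchymal, endothelial and immune markers lay above it.

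Nuclear receptors are transcription factors that bind short DNA elements, mostly copies of the hexamer AGGTCA or a steroid response element, and most of them change activity when a small lipophilic molecule such as a steroid, retinoid, thyroid hormone, oxysterol or fatty acid enters their pocket. Many bind DNA as a heterodimer with a retinoid X receptor (RXR). Corepressors such as Ncor1 bring histone deacetylases to receptors without agonist, whereas the p160 coactivators (Ncoa1, Ncoa2 and Ncoa3) bring acetyltransferases to receptors with agonist. COUP-TFII, encoded by Nr2f2, is itself an orphan receptor that binds AGGTCA repeats and can pair with RXR, so the comparison asks whether the transcripts of its relatives and partners differed when it was depleted.

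The siRNA target was checked first. The brightest Nr2f2 probe set (1389554_at) gave signals of 47.0, 27.7 and 23.8 in COUP-TFII depleted cells and of 182, 235 and 179 in control cells, a log2 fold change of -2.65 (SE 0.30). All 3 depleted arrays lay below all 3 control arrays. Its adjusted p in the unpaired limma fit was 0.404, and 0.0185 when the replicate number was kept as a block, so this probe set passed adjustment in the blocked fit alone of the 2. A second Nr2f2 probe set (1370063_at) gave 19.7, 22.2 and 21.3 against 79.8, 65.7 and 61.8, a log2 fold change of -1.71 (SE 0.32) with an adjusted p of 0.316 in the blocked fit. The third (1395863_at) was dim and gave -0.37 (SE 0.56). All fold changes are given on the log2 scale as depleted over control cells.

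The signals of 27 of the 42 measured genes lay above background in at least 1 group. Signals are linear MAS5 intensities, and the highest signal of any Bacillus control probe set, 20.7, served as a scale for background. By mean signal 35 of the 71 member probe sets (49.3%) lay above that scale in control cells, where 60.0% of all probe sets did, and 37 (52.1%) did in COUP-TFII depleted cells, against 59.9%. In either group it was 38 (53.5%), against 62.5% of all probe sets. The count on single arrays ran from 33 to 38, and 26 probe sets were above the scale on all 6 arrays while 23 were above it on none. The 38 probe sets belonged to 27 genes, and the other 15 genes were dim, meaning at or below the scale in both groups at every probe set. The genes nearest the scale were Vdr, with means of 21.9 in depleted and 19.0 in control cells, just inside it, and Rxra, with 11.6 and 19.7, just outside it.

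**Figure D1:**
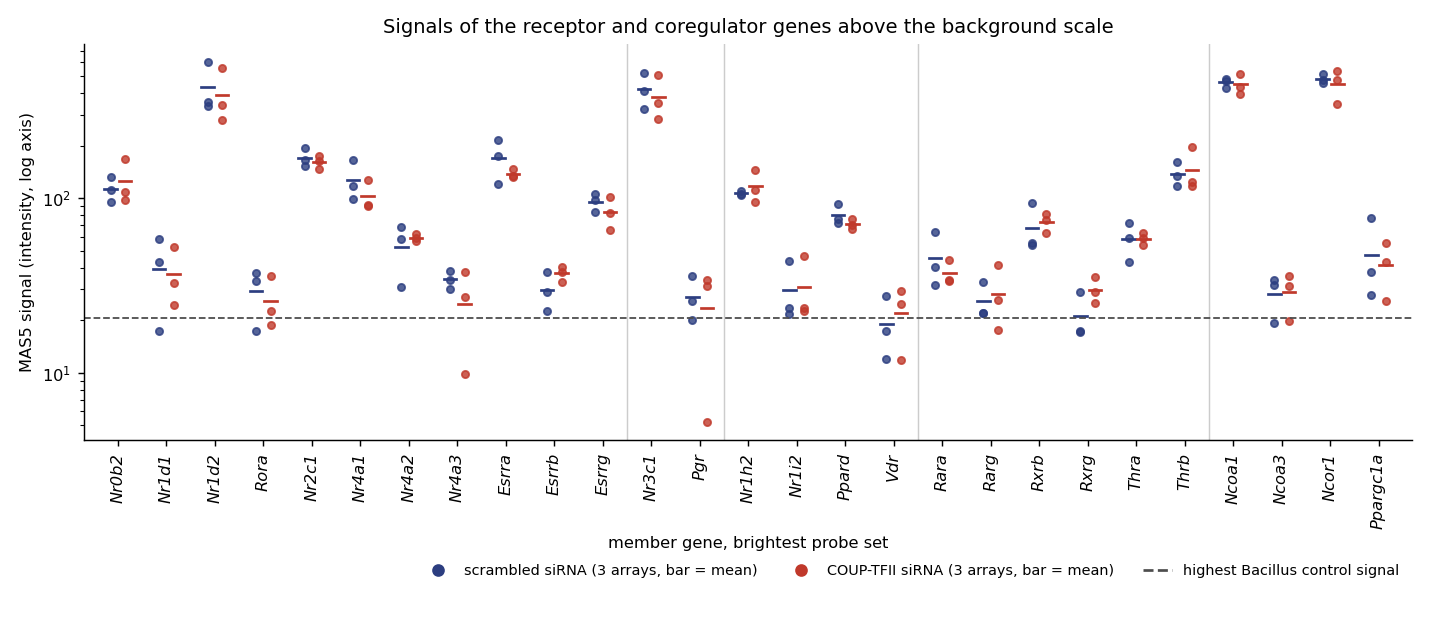
MAS5 signal (log axis) on each array for the brightest probe set of the 27 member genes above the background scale, ordered by role, with the mean of 3 arrays as a bar and the highest Bacillus control signal (20.7) as a dashed line. The groups overlap for all 27 genes.

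No member differed between the groups after adjustment. In the unpaired limma fit 0 of 71 probe sets had an adjusted p under 0.05 (background 0.0% of all probe sets). At an unadjusted p of up to 0.05, 0 were higher, against 0.973% of all probe sets, and 1 was lower, against 1.34%, which makes 1.41% of the members in either direction against 2.31%. With the replicate block 1 was lower, a different probe set (3.51% of all probe sets were lower and 6.23% passed in either direction), and the methods' t-test gave 1 lower (1.41% in either direction against 3.14%). After adjustment the block fit called 0 members, against 0.0161% of all probe sets. No adjusted p of a member in any fit was below 0.587. The groups did not overlap for 3 member probe sets, all lower in depleted cells and all dim (4.23% against 6.69% of all probe sets, of which 3.45% were lower and 3.24% higher). The median log2 fold change of the 42 genes, by brightest probe set, was -0.09, with 24 lower and 18 higher by mean, beside -0.0038 over all 14217 genes. It was 0.05 without the COUP-TFII siRNA array of replicate 2 and between -0.16 and -0.02 without any other array. Over the 38 probe sets above the scale, where 0 reached an unadjusted p of up to 0.05 (1.28% of all such probe sets), it was -0.01, and the median size of the change was 0.16, beside 0.14 over all probe sets above the scale. By same-numbered pairs, 15 of the 71 member probe sets were lower in depleted cells in 3 of 3 pairs and 2 of 71 were higher. Over all 31042 probe sets it was 4337 (14.0%) and 4169 (13.4%), so the members had a larger share lower and a smaller share higher. Of the 15, 8 were among the 33 dim member probe sets, beside 1419 of all 11653 dim probe sets. The other 7 were among the 38 above the scale, beside 2918 of all 19389 such probe sets. Nr5a2 entered at both 1384835_at and 1390965_at. This imbalance was not tested. Less RNA per cell and fewer cells with the RNA cannot be told apart in such bulk samples.

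Among the orphan and adopted receptors, 15 genes were measured and 11 lay above the scale. Nr1d2, which encodes REV-ERBβ, a haem-binding repressor of the circadian clock, was brightest at 1390430_at among its 3 probe sets, with 340, 279 and 556 in depleted and 357, 337 and 603 in control cells. The depleted array was the lower in 3 of 3 same-numbered pairs, but the array of replicate 3 was the highest in each group and the groups overlapped widely (log2 fold change -0.15, SE 0.30). Nr1d1, which encodes its paralogue REV-ERBα, gave 32.7, 24.5 and 52.7 in depleted and 42.8, 17.4 and 58.3 in control cells, with a log2 fold change of -0.01 (SE 0.53). Rora, the activator that shares binding sites with the REV-ERBs, ranged from 17.4 to 37.2 over the 6 arrays.

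The stretches before the starts of the REV-ERB genes are shown because Nr1d2 differed between the replicate numbers, as described below, and Nr1d1 is its paralogue. They are the GRCr8 promoter sequences of RefSeq, 250 bases up to the start, written 5′ to 3′ on the strand of the gene, for the starts whose stretch overlaps no annotated gene (chr15:9954784-9955033, plus strand, for Nr1d2, and chr10:84231813-84232062, minus strand, for Nr1d1). Capitals mark AGGTCA or the E-box CACGTG, the element that CLOCK and BMAL1 bind, on either strand.
Nr1d2: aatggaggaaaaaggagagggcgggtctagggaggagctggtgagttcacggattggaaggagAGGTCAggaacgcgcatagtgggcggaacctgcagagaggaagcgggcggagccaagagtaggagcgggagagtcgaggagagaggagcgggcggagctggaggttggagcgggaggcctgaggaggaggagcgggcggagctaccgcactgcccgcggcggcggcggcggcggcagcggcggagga
Nr1d1: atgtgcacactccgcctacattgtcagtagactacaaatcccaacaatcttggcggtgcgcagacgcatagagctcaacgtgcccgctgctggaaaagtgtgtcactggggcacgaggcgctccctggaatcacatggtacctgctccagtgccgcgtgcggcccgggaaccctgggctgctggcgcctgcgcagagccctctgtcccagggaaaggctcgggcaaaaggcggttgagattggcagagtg
AGGTCA stands at 1 place in the Nr1d2 stretch, with its first base 187 bases before the start, and neither word stands in the Nr1d1 stretch. Over all 33469 promoters of that length 14.1% hold AGGTCA and 5.59% hold CACGTG, and of the 44 starts listed for 36 of the measured members 5 (11.4%) hold the former, in Rarg, Nr5a2, Esrrg, Nr1d2 and Nr0b1, and 4 (9.09%) hold the latter, in Nr5a1, Nr0b2, Esr2 and a second Nr1d1 start. The direct repeat AGGTCANAGGTCA, a spacing that COUP-TFs and RXR heterodimers bind, stands in 0.0508% of promoters and in 0 of the members'. A match describes these letters and not a bound site.

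The NR4A receptors are induced by membrane depolarisation and cAMP in beta cells and act without a known ligand. Nr4a1 gave 91.7, 127 and 89.8 in depleted and 118, 166 and 99.1 in control cells, lower in 3 of 3 pairs, with a log2 fold change of -0.30 (SE 0.25). Nr4a2 (1369007_at) gave 62.2, 56.6 and 59.5 against 68.1, 58.7 and 31.2, and its log2 fold change of 0.25 (SE 0.34) was -0.09 without the low control array of replicate 3. Nr4a3 (1369067_at) gave 37.9, 27.0 and 9.79 against 38.3, 30.3 and 34.1, where the single depleted array of replicate 3 fell under the scale (log2 fold change -0.66, SE 0.55). The dim Nr4a3 probe sets 1369217_at and 1393389_at gave -0.80 (SE 0.88) and -1.86 (SE 0.98), the latter the lowest of all members. The second Nr4a2 probe set, 1387410_at, gave 0.28 (SE 0.76). The NR4A genes therefore had no common direction by mean, with Nr4a1 and Nr4a3 lower and Nr4a2 higher, and the values of each gene overlapped between the groups.

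The oestrogen-related receptors drive genes of mitochondrial metabolism. Esrra gave 135, 147 and 132 in depleted and 120, 215 and 175 in control cells (log2 fold change -0.26, SE 0.23). Esrrg, which is linked to the oxidative maturation of beta cells, gave 101, 81.8 and 65.4 against 106, 83.8 and 97.1, lower in 3 of 3 pairs (-0.22, SE 0.24). Esrrb gave 40.2, 37.9 and 33.1 against 29.2, 22.6 and 37.7 (0.34, SE 0.37). Of the remaining orphan receptors above the scale, Nr0b2, which encodes SHP, a receptor without a DNA-binding domain that represses other receptors, gave 109, 167 and 97.9 against 111, 132 and 95.1 (0.12, SE 0.25). Nr2c1, which encodes TR2, lay within 146 to 193 on all 6 arrays (-0.07, SE 0.17), a narrow spread that left the groups overlapping.

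Only 2 of the 5 steroid receptor genes lay above the scale. Nr3c1, the glucocorticoid receptor, gave 505, 352 and 284 in depleted and 524, 411 and 325 in control cells at 1368221_at. It was lower in 3 of 3 pairs, by less than the distance between the replicates of a group (log2 fold change -0.16, SE 0.25). Pgr, the progesterone receptor, gave 33.8, 5.21 and 31.3 against a range of 20.05 to 36.0, with the depleted array of replicate 2 apart from the rest (-0.58, SE 0.75). Nr3c2, Esr1 and Esr2, the mineralocorticoid and oestrogen receptors, were dim.

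Of the 9 lipid and xenobiotic sensors that pair with RXR, 4 lay above the scale. Nr1h2, the widely expressed oxysterol receptor LXRβ, gave 94.6, 111 and 145 in depleted and 110, 105 and 105 in control cells (log2 fold change 0.11, SE 0.21). Ppard, the fatty acid sensor PPARδ, gave 69.9, 76.3 and 67.0 against 72.2, 92.1 and 76.2, lower in 3 of 3 pairs (-0.17, SE 0.23). Nr1i2, the xenobiotic sensor PXR, gave 22.4, 23.5 and 46.9 against 23.6, 21.8 and 43.4 (0.05, SE 0.48). In both Nr1i2 groups the array of replicate 3 stood above the others. Vdr, the vitamin D receptor, ranged from 11.8 to 29.2 across the scale (0.19, SE 0.57).

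Among the retinoid and thyroid hormone receptors 6 of 8 genes lay above the scale. Thrb (1394456_at), a receptor for triiodothyronine, gave 117, 123 and 198 in depleted and 133, 117 and 162 in control cells (log2 fold change 0.06, SE 0.25). Thra (1367726_at), the other thyroid hormone receptor, gave 53.9, 62.8 and 58.9 against 58.9, 72.2 and 43.0 (0.04, SE 0.29). Of the RXR genes, whose products are the shared partners, Rxrb gave 63.5, 75.1 and 81.7 against 53.6, 93.4 and 55.7 (0.16, SE 0.29). Rxrg gave 29.2, 25.1 and 35.4 against 17.3, 28.9 and 17.1, the largest change among the brightest probe sets above the scale after those of Nr4a3 and Pgr, and it too overlapped (0.54, SE 0.44). Rxra was dim by mean at its single named probe set, with 15.6, 11.1 and 8.01 in depleted and 34.4, 12.5 and 12.3 in control cells. Its log2 fold change of -0.64 (SE 0.64) was -0.15 without the control array of replicate 1, the single array above the scale. Rara, a retinoic acid receptor, gave 34.1, 33.7 and 44.2 against 40.6, 31.8 and 63.9 (-0.23, SE 0.37), and Rarg ranged from 17.5 to 41.6 (0.08, SE 0.47).

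Of the 5 coregulators 4 lay above the scale. Ncor1, the corepressor, gave 475, 346 and 538 in depleted and 474, 456 and 517 in control cells at its brightest of 3 probe sets, all above the scale, with log2 fold changes of -0.11, 0.04 and 0.02 (SE 0.18, 0.20 and 0.18). Ncoa1, the p160 coactivator SRC-1, gave 435, 397 and 516 against 429, 484 and 471 at its brightest probe set (-0.04, SE 0.15). A second Ncoa1 probe set, 1390010_at, gave 301, 231 and 359 against 319, 343 and 449 and was lower in 3 of 3 pairs (-0.33, SE 0.21). This was the single member probe set that reached an unadjusted p of up to 0.05 with the replicate block (limma, adjusted p = 0.777), and its fold change lay between -0.48 and -0.16 as each array was left out. The brighter Ncoa1 probe set was lower in 1 of 3 pairs, so the probe sets of the gene did not give the same picture. Ncoa3 (1388178_at) gave 31.4, 36.0 and 19.9 against 19.3, 31.8 and 33.9 (0.04, SE 0.44). At its second probe set, 1380638_at, the log2 fold change of 1.31 (SE 0.95) came from the control array of replicate 1, at 2.05 where the other arrays lay between 18.9 and 35.1, and it was 0.14 without that array. Ppargc1a, which encodes the metabolic coactivator PGC-1α, gave 55.2, 25.7 and 43.3 against 76.9, 37.8 and 28.0 (-0.13, SE 0.47), and Ncoa2 was dim.

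The 3 probe sets whose groups did not overlap were all dim, and are named because of their values. Nr5a2, which encodes LRH-1, a phospholipid-binding receptor of liver and exocrine pancreas, gave 2.77, 3.86 and 1.86 in depleted and 9.55, 7.19 and 10.2 in control cells at 1384835_at. Its log2 fold change was -1.71 (SE 0.67, 95% interval -3.24 to -0.18), with a limma p of 0.0327 before adjustment (0.0591 with the replicate block), an adjusted p of 1 and an exact two-sided permutation p of 0.1, the smallest that 3 against 3 arrays can give. Every one of these signals lay below 20.7. The other Nr5a2 probe sets, also dim, gave -1.76 (1390965_at, 95% interval -3.92 to 0.39) and -0.05 (1387573_a_at). With log2(signal + 16) the change at 1384835_at was -0.41. Nr1i3, the xenobiotic sensor CAR, gave 2.24, 6.86 and 9.24 against 15.8, 12.8 and 15.5 (-1.49, SE 0.73). Esr2 gave signals from 0.659 to 0.763 against 1.01 to 1.64, near the floor of 1 set for the log scale. The remaining dim genes were Nr0b1, Nr2c2, Nr5a1, Nr3c2, Esr1, Nr1h3, Nr1h4, Ppara, Pparg, Rarb, Rxra and Ncoa2, which code for DAX-1, TR4, SF-1, the mineralocorticoid receptor, ERα, LXRα, FXR, PPARα, PPARγ, RARβ, RXRα and the coactivator SRC-2. Over the 33 dim member probe sets the log2 fold changes ran from -1.86 to 1.24 with a median size of 0.58, beside 0.59 over all dim probe sets.

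How small a change these arrays could bound was set by the width of the intervals. For 20 of the 38 member probe sets above the scale (52.6%, against 66.0% of all such probe sets) the 95% interval of the log2 fold change lay within -1 to 1, that is, within 2-fold. These 20 belonged to Nr0b2, Nr1d2, Nr2c1, Nr4a1, Esrra, Esrrg, Nr3c1, Nr1h2, Ppard, Rxrb, Thra, Thrb, Ncoa1 and Ncor1. The bound holds for the probe set and not for the gene. Nr1d2 (1370540_at, -1.43 to 0.75), Nr3c1 (1368222_at, -1.38 to 0.91) and Thra (1370691_a_at, -0.54 to 1.08) each had another probe set above the scale with a wider interval. With the replicate block 27 did. The other 18 had intervals that reached beyond 2-fold, as did all 33 dim probe sets, so these data do not bound the change within 2-fold for them. An interval within 2-fold bounds a change and does not show that there was none.

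**Figure D2:**
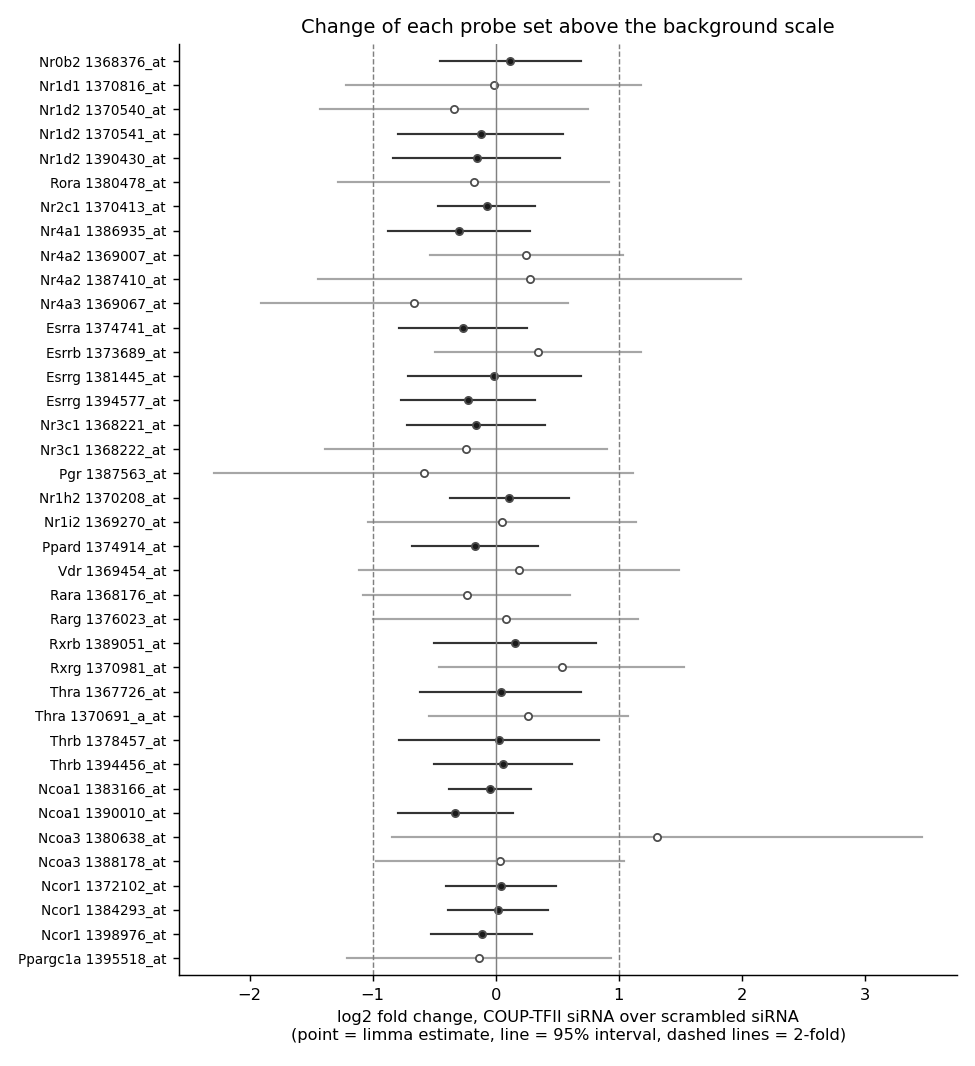
Log2 fold change (depleted over control cells) with its 95% interval (unpaired limma, 3 arrays per group) for the 38 member probe sets above the background scale; dashed lines mark 2-fold. Filled points, 20 of 38, have intervals within 2-fold, and every interval includes 0.

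Of the members, Nr1d2 and Nr3c1 differed between the replicate numbers, in the same order in both groups. This comparison was chosen after the data were seen: same-numbered arrays of both groups deviated together, and a limma F-test over the replicate numbers, fitted beside the groups, asked which probe sets differed among them. It gave an adjusted p under 0.05 for 3 of 71 member probe sets (4.23% against 11.0% of all), all above the scale (3 of 38, 7.89% against 17.4%). They were Nr1d2 at 1390430_at (adjusted p = 0.00164) and 1370541_at (adjusted p = 0.0200), and Nr3c1 at 1368221_at (adjusted p = 0.00558). At 1370541_at Nr1d2 gave 196, 135 and 301 in depleted and 193, 189 and 281 in control cells, so replicate 3 was the highest of each group at both probe sets. The third Nr1d2 probe set, 1370540_at, lay near the scale, and its adjusted p was 0.707. Nr3c1 had another order, with replicate 1 the highest and replicate 3 the lowest in each group. Nr1d1 had the same order as Nr1d2 in each group (replicate 3 the highest, replicate 2 the lowest), with an adjusted p of 0.112. That order was not particular to the REV-ERB genes. Ncor1 at 1398976_at (adjusted p = 0.153) and Rara (adjusted p = 0.401) had it in each group too. Ncoa1 at 1390010_at (adjusted p = 0.0774), Thrb at 1394456_at (adjusted p = 0.0861) and Nr0b2 (adjusted p = 0.0989) came nearer to the threshold than Nr1d1. Nr4a1 was highest in replicate 2 of each group (adjusted p = 0.0841). Without the intensity trend in the fit 0 member probe sets passed, and with median centring of the arrays 6 did, among them Nr1d2 at 1390430_at (adjusted p = 0.00701) and Nr3c1 at 1368221_at (adjusted p = 0.00131) but not Nr1d2 at 1370541_at (adjusted p = 0.102). The latter was also lost without the COUP-TFII siRNA array of replicate 2 (adjusted p = 0.0972) or 3 (adjusted p = 0.171) and without the scrambled siRNA array of replicate 3 (adjusted p = 0.0569). Nr3c1 was lost without the COUP-TFII siRNA array of replicate 1 (adjusted p = 0.0645). With quantile normalization these 3 probe sets still passed. The adjusted p was 0.00144 for Nr1d2 at 1390430_at, 0.0243 for Nr1d2 at 1370541_at and 0.00458 for Nr3c1 at 1368221_at. Shares over all probe sets are not given for these alternative settings. For 36 of the 38 probe sets above the scale (94.7%, against 88.1% of all such probe sets) the range over the replicate numbers was larger than the difference between the groups. The exceptions were Rxrg and Esrrb.

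Other measures moved with the replicate numbers too. The median signal of the arrays was 35.9 and 37.0 for replicate 1, 31.1 and 29.9 for replicate 2, and 39.4 and 39.4 for replicate 3, in depleted and control cells, the same order as that of Nr1d2. Gcg differed between them (adjusted p = 1.63e-05), as did the beta cell markers Ins2 (adjusted p = 0.00539) and Mafa (adjusted p = 0.00444). Most markers did not: these were 1 of 12 markers of other islet and exocrine cells (8.33%) and 2 of 15 beta cell markers (13.3%). Among all genes 13.4% differed, so the markers had no larger share. The labels give 1 range of passages for all samples and tie no passage, culture or date to a replicate number, and the part of these in the members' differences was not tested.

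**Figure D3:**
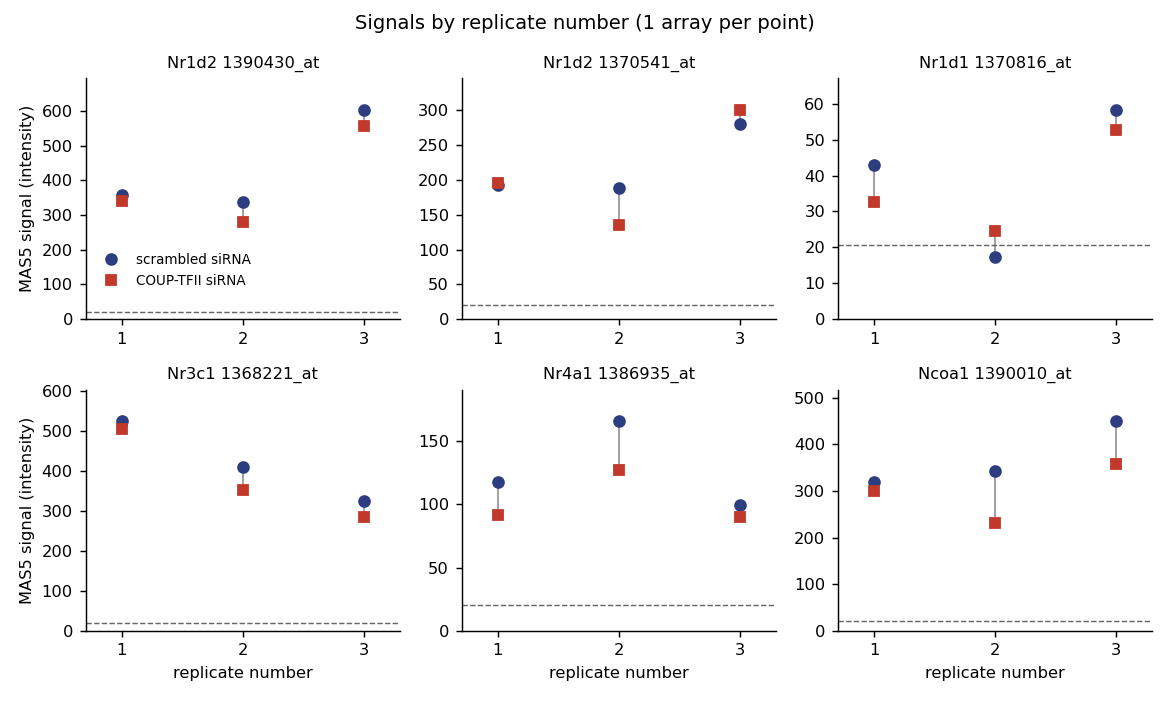
MAS5 signal by replicate number for Nr1d2 (2 probe sets), Nr1d1, Nr3c1, Nr4a1 and Ncoa1, 1 array per point, with the same-numbered arrays joined and the background scale of 20.7 dashed. Replicate 3 is the highest of each group for Nr1d2 and Nr1d1, and the lowest of each group for Nr3c1.

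**Figure D4:**
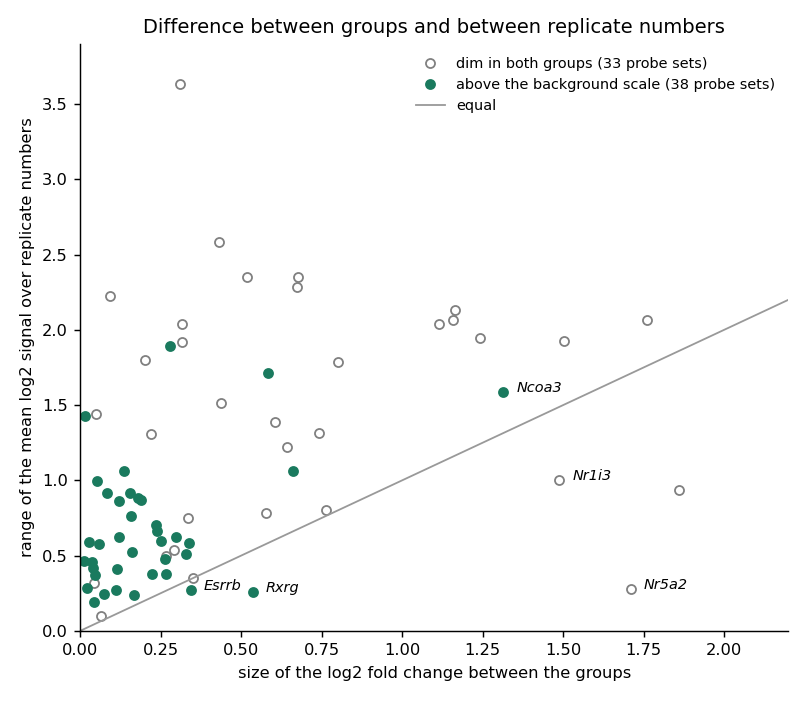
Size of the log2 fold change between the groups (x axis) against the range of the mean log2 signal over the replicate numbers (y axis) for the 71 member probe sets, filled where above the background scale and open where dim. Of the 38 filled points, 36 lie above the line of equality, and Rxrg is among the exceptions.

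The clock genes, which include direct targets and regulators of the REV-ERBs, were set beside Nr1d1 and Nr1d2. Of 14 measured, 6 (42.9%) differed between replicate numbers, against 13.4% of all genes: Clock, Cry1, Cry2, Dbp, Hlf and Bhlhe41. Shares of like size stood in other lists: 6 of 17 PPAR targets (35.3%) and 4 of 11 targets of the retinoid, thyroid hormone and vitamin D receptors (36.4%) differed as well. Of the 14 clock genes 13 lay above the scale, where 17.4% of all probe sets differed. Dbp, a proline- and acid-rich clock output factor, gave 128, 223 and 165 in depleted and 145, 231 and 136 in control cells, highest in replicate 2, where Nr1d1 and Nr1d2 were lowest. Clock, the E-box activator, gave 341, 148 and 293 against 465, 208 and 363, lowest in replicate 2 of each group. In each pair Clock was lower in depleted cells, with a log2 fold change of -0.42 (SE 0.37) and a limma p of 0.288 that became 0.00171 with the replicate block (adjusted p = 0.630). Bhlhe41, a repressor of the clock, gave 337, 395 and 562 against 348, 594 and 625, and its p went from 0.348 to 0.0452 with the block (adjusted p = 0.797). Tef gave 113, 167 and 154 against 159, 177 and 183 (-0.28, SE 0.20). No clock gene differed between the groups after adjustment in either fit.

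The known target genes of the receptors gave few differences between the groups. Of 12 LXR targets, 0 were higher and 1 was lower at an unadjusted p of up to 0.05 (all genes: 0.717% higher and 1.3% lower). It was Abca1, which encodes the cholesterol exporter ABCA1, at 263, 147 and 264 in depleted and 343, 299 and 311 in control cells. All 3 depleted arrays lay below the control arrays (log2 fold change -0.55, SE 0.24, limma's adjusted p = 1, and 0.720 with the block). The other LXR targets did not pass, among them Srebf1, the lipogenic regulator, at 150, 204 and 180 against 145, 216 and 131 (0.14, SE 0.23), and Smpdl3a (-0.38, SE 0.43). Of 17 PPAR targets 0 passed in either direction, and of these Plin2, the lipid droplet coat protein perilipin 2, was higher on all 3 depleted arrays at 116, 121 and 123 against 96.1, 115 and 108 (0.18, SE 0.18). Its groups stood barely apart, at 115.9 and 115.4 on the nearest arrays, and 6.69% of all probe sets had groups without overlap. Ucp3 (-0.76, SE 0.72) and Cpt1b (0.18, SE 0.23) overlapped.

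Of 14 glucocorticoid targets 0 passed. Mt2A, a metallothionein, gave 9.15, 6.58 and 9.85 in depleted and 54.7, 4.69 and 68.9 in control cells (-1.63, SE 0.99), with the control array of replicate 2 as low as the depleted arrays. Tsc22d3, which encodes GILZ, gave 280, 488 and 412 against 352, 472 and 421 (-0.10, SE 0.22), and Cebpd gave a log2 fold change of 0.18 (SE 0.35). Of the 14, 4 differed between replicate numbers (28.6%, against 13.4% of all genes): Tsc22d3, Klf9, Errfi1 and Ddit4. Of 11 targets of the retinoid, thyroid hormone and vitamin D receptors 0 passed. Me1, the malic enzyme (0.10, SE 0.18), Crabp2, a retinoic acid carrier (-0.24, SE 0.50), and Cyp26b1, which degrades retinoic acid (0.18, SE 0.46), had the lowest p values of that list among genes above the scale.

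The 20 immediate early genes, read beside the NR4A receptors, also gave 0 in either direction. Egr2, a zinc finger factor, did not overlap between the groups, as was so for 6.69% of all probe sets. It gave 30.1, 17.8 and 19.7 in depleted and 14.6, 8.64 and 13.8 in control cells, close to the scale (0.87, SE 0.53). Jund and Ier2 were higher by mean (0.35, SE 0.27, and 0.39, SE 0.41) and overlapped. The 26 other coregulators measured were all above the scale and stayed within log2 fold changes of -0.22 and 0.11, with 0 at an unadjusted p of up to 0.05. Their lowest p values were those of Ncoa7 (-0.12, SE 0.14), the Mediator subunit Med1 (-0.17, SE 0.19) and Trim24 (-0.15, SE 0.17). Of the other nuclear receptors 2 were measured, Rorb (0.14, SE 0.41) and the COUP-TF relative Nr2f6, which gave 157, 256 and 151 against 173, 242 and 144 (0.0018, SE 0.27).

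**Figure D5:**
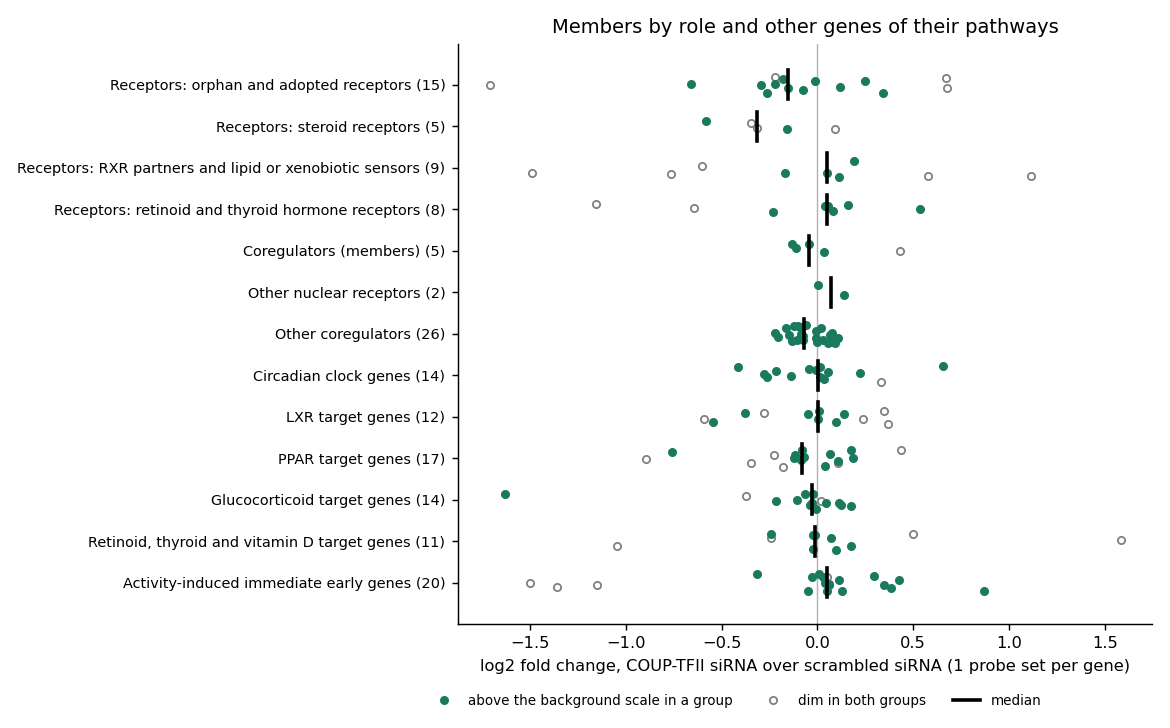
Log2 fold change (depleted over control cells) of the brightest probe set of each gene for the 42 members by role and for 8 other gene lists, with the number of genes measured in parentheses; filled points lie above the background scale in at least 1 group, open points are dim in both, and black bars are medians. The 26 other coregulators lie between -0.22 and 0.11, and the points beyond -1 or 1 are dim apart from Mt2A.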

How the data were processed

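RNA of 3 COUP-TFII siRNA and 3 scrambled siRNA samples was hybridized to rat expression arrays. The authors deposited a linear MAS5 intensity for every probe set on every array, after background subtraction and scaling. The MAS5 version is not given in the sources used here. The table holds 31099 probe sets, of which 57 controls were left out of the tests. Platform annotation gave 1 symbol for 20826 of the 31042 probe sets tested, several for 436 and none for 9780, and the latter kinds were left unnamed. The number of arrays, 3 per group, limits the precision.

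Before the log2 step, signals below 1 were raised to 1, which touched 1.85% to 5.49% of signals per array. No normalization was added. The unpaired two-sided group test was limma's moderated test (version 3.58.1, R 4.3.3) with the variance allowed to follow intensity, and p values were adjusted by Benjamini-Hochberg across all 31042 probe sets, with a threshold of 0.05. The study's methods name a t-test on log2 values, called the methods' t-test here. Levels were not compared between probe sets. The F-test between replicate numbers used the same tool. The unpaired and blocked limma fits, the methods' t-test and the F-test were run on simulated data with independent noise and known large changes. The alternative settings were not.

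Deviations from the group means correlated at 0.111, 0.231 and 0.163 between same-numbered arrays and from -0.146 to -0.0104 between others. The deviations of a group cancel out, so positive values between same-numbered arrays leave the others negative on average. The negative values are therefore not separate evidence of pairing. Every same-numbered pair was over 0.1, so the numbers were taken to pair the arrays, from the data and not from a label.

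The members and lists were chosen with earlier results of these data known. Named are all members, and in full those above the background scale with an unadjusted p of up to 0.05 or groups that do not overlap (none was found) and the brightest probe set of each gene above the scale. From each other list up to 3 genes above the scale with the lowest p are named, and Nr2f2 as the target. Genes named for their replicate differences, the further probe sets of members and the dim genes given with values were chosen after their values were seen. The probe set with the highest mean log2 signal stands for a gene. Promoters were searched with Python 3.11.15.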

Additional observations from a re-analysis of the deposited data

How the results depend on the processing

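No member passed adjustment under any of the 16 settings tried. The number of member probe sets lower at an unadjusted p of up to 0.05, 1 as reported, was 2 without the intensity trend and with log2(signal + 16), and 0 with only probe sets above the background scale or at or above the median signal, since Nr5a2 does not enter there. It ran from 0 (without the scrambled siRNA array of replicate 3) to 2 (without the COUP-TFII siRNA array of replicate 2 or 3) as each array was left out. The other pathway genes, 1 lower and 0 higher as reported, gave 0 lower by the methods' t-test and with either filter, 0 lower and 1 higher without the trend, and 0 to 2 lower and 0 to 1 higher with an array left out. They gave 0 lower without the scrambled siRNA array of replicate 1 or 3, and 2 lower and 1 higher without that of replicate 2. With the replicate block they gave 3 lower, 3 with the block and the filter on the background scale, and 4 lower and 1 higher with the block and quantile normalization, both chosen after seeing the data. The cause was not tested. The replicate block moved no member past adjustment. With an array left out, 1 to 4 member probe sets were higher and 4 to 8 lower without overlap, as fewer arrays separate more easily. Beyond the unpaired and blocked fits and the methods' t-test, no share over all probe sets is given here. The counts under the other settings are therefore not read as a result about the members.

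The median log2 fold change of the member genes, -0.09, ran from -0.16 to 0.05 as each array was left out, and was above 0 without the COUP-TFII siRNA array of replicate 2 alone. The count that differed between replicate numbers, 3, was 6 with median centring, 6 with only probe sets above the background scale, 0 without the intensity trend, and 2 to 3 with an array left out, all chosen after seeing the data. No share over all probe sets is given for these settings, so these counts are not read as a result about the members. Of 1023 recomputed fold changes of single members 932 kept their direction and 91, at 45 probe sets, changed sign without being called in either fit. Signals near the Bacillus controls limit what can be said of the 33 dim probe sets.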
